A study of Mus musculus with 4 samples.

Results

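The genes described are 10 heat shock chaperones and co-chaperones: Hspa4l, Hspa4, Hspa8, Hsph1, Dnajb1, Hspb1, Hspb8, Cryab, Bag3 and Hsp90aa1. They were taken by name, each from a probe set of the array annotated with exactly 1 gene symbol, and all 10 were found, on 15 probe sets, among 19938 named genes. Expression was measured in mouse embryonic fibroblasts prepared from a C57BL/6 embryo at E13.5, transformed with SV40 and lacking BAX and BAK, the proteins that open the outer mitochondrial membrane in apoptosis. All 4 groups share this genotype and the transformation, so no group with intact BAX and BAK is compared. The groups are cells with a retrovirus expressing GFP and cells with a retrovirus expressing p63, each either mock-treated or exposed to etoposide over 6 h. The arrays are named GFP mock, GFP etoposide, p63 mock and p63 etoposide, and readings are given in this order. Etoposide is a topoisomerase II poison that leaves DNA breaks, and its dose is labelled as 10 micrograms, per mL in one field and per microlitre in another. The sources used here do not give the promoter of the retroviral inserts, the species or isoform of p63, or whether a line is 1 clone. Each group is 1 Affymetrix Mouse Gene ST array.

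Values are the deposited RMA signals in log2 units, where a step of 1 is 2-fold. No group has a replicate, so every difference is given by its size, with no error and no test. A gene was kept where its highest signal over the arrays reached 5.87, the median of all readings of named probe sets, which left 10698 genes. All 10 chaperones were kept, and each exceeded 5.87 on all 4 arrays, with readings from 6.56 to 13.1. A kept gene is called higher or lower where a difference is at least 2-fold, and counts are set beside the share of all kept genes called in the same comparison. That share was 5.65% after etoposide with GFP and 7.61% after etoposide with p63, and for p63 against GFP it was 6.18% (mock) and 1.90% (etoposide). In a bulk sample, fewer cells of a type and less RNA per cell cannot be told apart.

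The virus label was checked on Trp63, the gene of p63, which read 4.87, 5.59, 8.75 and 9.29. Over the kept genes the array of mock-treated p63 cells lay at least 1 from each other array, with those within 0.5 of one another, for 78 genes, against 1 to 22 for the other arrays. None of the 10 chaperones was among these genes on any array. So few of the 10698 genes kept met this rule that this says little of the 10. Hspb1 came near it on the p63 etoposide array, with a gap of 0.92 to the next array. Of 13 fibroblast markers measured, 8 or 9 reached 5.87 on each array, among them the collagen genes Col1a1 and Col1a2, whereas Thy1, Pdgfra, Lum and Dcn were below it throughout. No endothelial marker of 7 measured reached it on any array, and of 7 haematopoietic markers Cd68 alone did, at 6.05, 6.78, 5.196 and 6.87, with Ptprc below it throughout. Of 10 simple epithelium markers 2 to 3 reached it on each array, with Epcam and Cdh1 below it throughout, and of 8 skeletal muscle markers 1 to 3 did, with Myod1 and Myog below it throughout.

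Heat shock proteins are molecular chaperones that hold or refold proteins that have lost their shape. HSP70 proteins bind and release client proteins in a cycle that J-domain proteins start and that HSP110 and BAG proteins, as nucleotide exchange factors, push on, while small heat shock proteins hold unfolded clients without using ATP and HSP90 acts on clients close to their final fold. Under heat and other stress that damages proteins, the transcription factor HSF1 binds heat shock elements, inverted repeats of the bases GAA, and raises many of these genes together. In unstressed cells HSP70 and HSP90 proteins bind HSF1 and restrain it.

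After etoposide the 10 genes did not move as one set. Cryab, which encodes alphaB-crystallin, was called higher in both lines, 2.50-fold with GFP and 3.02-fold with p63. Hspb1, the gene of HSP25 (HSP27 in humans), was called higher in p63 cells, at 2.15-fold, and stood at 1.11-fold in GFP cells. Hspa4l, which encodes a relative of HSP110, had etoposide differences of -0.85 (GFP) and -0.70 (p63) on the log2 scale, short of a call. With p63, Hspa4l was the member called, 2.37-fold higher without etoposide and 2.63-fold higher with it.

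**Figure D1:**
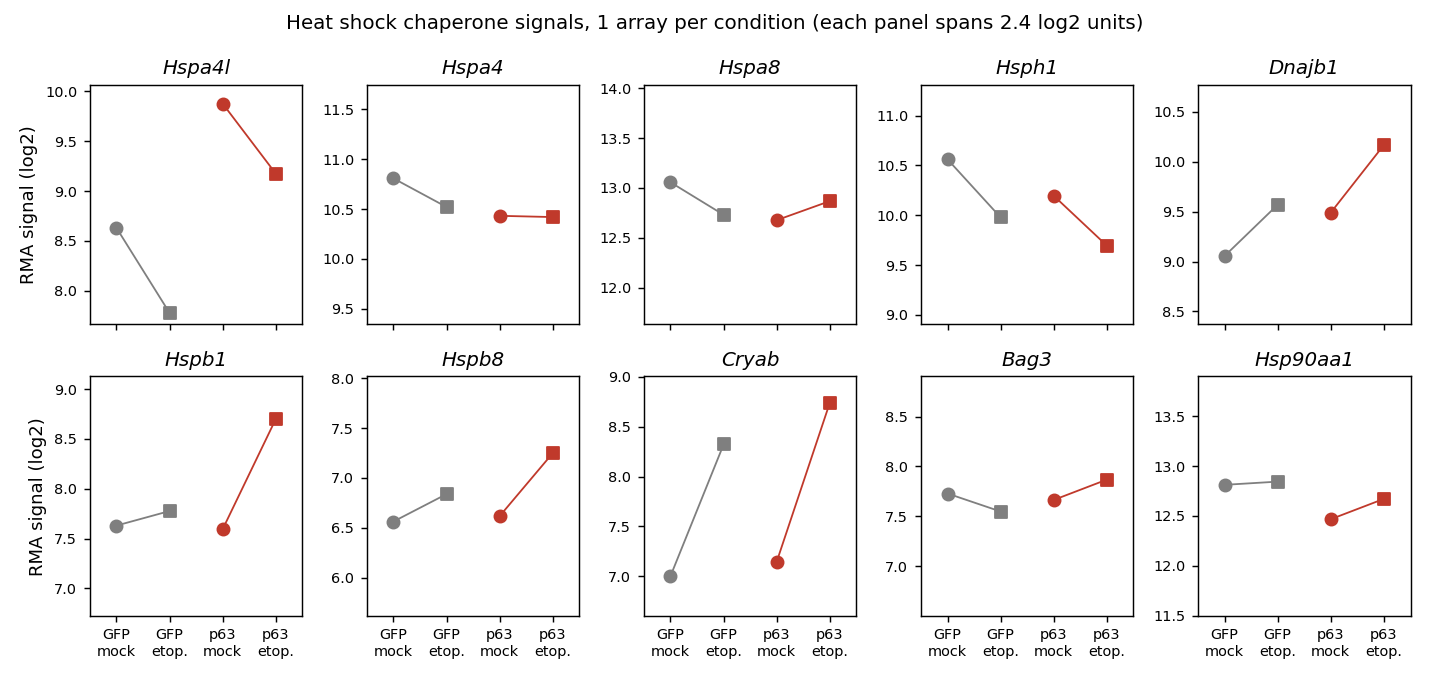
RMA signal (log2) of the 10 chaperones on the 4 arrays, grey for GFP and red for p63 cells, circles for mock and squares for etoposide. Each point is 1 array, lines join the arrays of a line, and every panel spans the same log2 distance. The steep lines are those of Cryab in both lines and Hspb1 in p63 cells, and the Hspa4l points of p63 cells all lie above those of GFP cells.

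Because HSF1 acts through heat shock elements, the RefSeq promoter windows (GRCm38.p6, from 250 bases before to 50 bases after an annotated start) of the members were searched on both strands. Windows were present for 7 of the 10 members. A pair of facing units, written GAANNTTC or TTCNNGAA, was found in the windows of Hsph1, Hspb1, Hspb8 and Bag3, or 4 of these 7 genes, and in those of 17.0% of all 27025 genes in the table. An array of 3 units, GAANNTTCNNGAA or TTCNNGAANNTTC, which contains a pair, was found in Hsph1 alone and in 0.662% of all genes. The windows of Hspa4l, Hspa4 and Dnajb1 held neither form, and those of Cryab, Hspa8 and Hsp90aa1 were not analysed here. Only these exact letters were searched, so elements with imperfect units or outside the windows would be missed. The CCAAT box (CCAAT or ATTGG), which binds the factor NF-Y and is common in chaperone promoters, was found in Hsph1 and Dnajb1 and in 41.1% of all genes. The consensus half-site of p53, which may differ from the response elements that p53 and p63 use, was found in Hsph1 and in 9.55% of all genes. A match in these windows is a description of the letters and no measure of binding.

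The small heat shock proteins held both genes called after etoposide. Cryab read 7.003, 8.32, 7.15 and 8.74 on the GFP mock, GFP etoposide, p63 mock and p63 etoposide arrays. Both etoposide arrays lay above both mock arrays, and the gap between the lower etoposide reading and the higher mock reading was 1.17. After etoposide Cryab was higher by 1.32 (GFP) and 1.59 (p63). Of the 10698 genes kept, 187 had a higher etoposide difference than Cryab in GFP cells and 162 in p63 cells. Between the lines Cryab differed by 0.15 under mock and 0.42 under etoposide treatment, neither called, and 2730 and 1026 of the kept genes had higher values.

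Hspb1, whose product caps actin filaments as well as holding unfolded proteins, read 7.63, 7.78, 7.60 and 8.70 in the same order of arrays. The array of etoposide-treated p63 cells was thus the high one, with a gap of 0.92 to the next array. Its etoposide difference was 0.15 (GFP) and 1.11 (p63), and its p63 difference was -0.04 (mock) and 0.92 (etoposide). A second probe set annotated with the same transcripts gave 0.10 and 1.27 after etoposide, and -0.22 and 0.95 with p63. The difference of the etoposide differences was 0.96 on the first probe set and 1.17 on the second, on either side of the threshold. With the same annotation, these probe sets are not counted as independent readings. The call in p63 cells uses the array of mock-treated p63 cells, and without that array no etoposide difference can be formed in this line. The p63 difference in etoposide-treated cells does not use it and was 0.92, or 1.90-fold, but it measures no response to etoposide. Hspb1 is shown here because it holds a pair of facing GAA units at each of 2 places, 117 and 97 bases before the start, at chr5:135887769-135887918 on the plus strand, with these matches in capitals:

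Hspb1: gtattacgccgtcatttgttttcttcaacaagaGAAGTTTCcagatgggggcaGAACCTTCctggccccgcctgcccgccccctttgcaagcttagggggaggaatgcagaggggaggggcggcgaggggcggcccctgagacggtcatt

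Hspb8, whose product works with BAG3 in handing clients to autophagy, read 6.56, 6.84, 6.62 and 7.25. Its readings lay in the order of those of Cryab, mock-treated GFP lowest and etoposide-treated p63 highest, but its etoposide differences, 0.28 (GFP) and 0.63 (p63), were not called. The only pair of facing units in its window began 3 bases after the start, at chr5:116422845-116422872 on the minus strand, in capitals here for comparison with Hspb1, whose first match has the same letters:

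Hspb8: gaagccaggaGAAGTTTCtaggctcgcg

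Most of the rest of the small heat shock list was below 5.87 on every array. Of 10 genes measured 5 were kept, the members together with Hspb6 and Hspb11. The median etoposide difference of the 5 was 0.25 (GFP) and 0.63 (p63), against -0.08 and 0.10 for all genes kept. These medians are the values of Hspb11 and Hspb8, and with 5 genes, 3 of them members, they say little of the class. Hspb6, abundant in muscle, read 7.89, 7.42, 7.62 and 7.92 and stood at -0.47 and 0.31. Hspb11, named with this family and a component of intraflagellar transport, stood at 0.25 and 0.34. Cryaa, the lens partner of Cryab, and Hspb2, which lies beside Cryab in the genome, were below 5.87 on every array, at 4.98 to 5.71 and 5.39 to 5.75.

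Among the HSP70 and HSP110 genes no member was called after etoposide. Hspa4l read 8.63, 7.78, 9.88 and 9.17. Both p63 readings lay above both GFP readings, and within each line the etoposide reading was the lower. The p63 difference of Hspa4l was 1.25 (mock) and 1.40 (etoposide), and 145 and 52 of the kept genes had higher values. Its range over the arrays, 2.10, was the widest of the 10 members, whose median range was 0.78, against 0.57 for all genes kept. In the p63 line markers of basal epidermis also stood higher, a programme that p63 is known to direct. Of 8 such markers measured, 1, 4, 7 and 7 reached 5.87 on the 4 arrays, so most passed the filter through the p63 arrays and no count of calls is given. Their summed log2 signal was 42.2, 47.5, 64.8 and 65.1, and Dsg3 was below 5.87 on every array. The sum over the 10 simple epithelium markers was 49.3, 52.5, 54.7 and 53.9, in which Krt19, a keratin, read 6.66, 7.48, 10.1 and 10.5. The sum over the 8 skeletal muscle markers was 41.3, 43.0, 44.1 and 43.4, in which Acta1 differed with p63 by 1.26 (mock) and 0.75 (etoposide) and Tnnt3 by 1.07 and 0.02. The part of any of these in the Hspa4l difference was not tested.

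Hspa4, the close relative of Hspa4l, read 10.8, 10.5, 10.4 and 10.4. It spanned 0.39 in all, with p63 differences of -0.38 and -0.10, so it did not share the p63 difference of Hspa4l. Hsph1, the gene of HSP105, read 10.6, 9.98, 10.2 and 9.69. Its etoposide differences were -0.58 (GFP) and -0.50 (p63), and its p63 differences were -0.37 and -0.28. Hsph1 and Hspa4l therefore stood lower after etoposide in both lines, while they differed in opposite directions between the lines. The promoter window of Hsph1 is shown because it held more heat shock element letters than any other member searched. Any part of these letters in its etoposide differences was not tested. Hsph1 has a pair of annotated starts, and positions are counted from the upstream one. At chr5:149636337-149636486 on the minus strand it held a CCAAT box 116 and an ATTGG 47 bases before the start and a TTCNNGAA pair 33 bases before it, all in capitals:

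Hsph1 upstream: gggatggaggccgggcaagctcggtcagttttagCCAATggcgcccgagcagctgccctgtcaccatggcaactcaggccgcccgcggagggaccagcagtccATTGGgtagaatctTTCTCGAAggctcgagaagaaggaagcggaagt

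The 3-unit array began 37 bases after that start, at chr5:149636287-149636305, in capitals:

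Hsph1 downstream: gcagaTTCTGGAAAGTTCt

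Hspa8, the constitutive HSP70 of the cytosol (HSC70), read 13.1, 12.7, 12.7 and 12.9, with GFP mock the high array. The etoposide difference was -0.33 (GFP) and 0.19 (p63), of opposite sign and neither called. Its 3 probe sets gave -0.25 to -0.33 (GFP) and 0.18 to 0.19 (p63). Genes with processed copies such as this one can share probes with them. Hspa1a, the inducible HSP70 and a usual marker of HSF1 activity, read 6.44, 7.01, 6.91 and 6.72. Its etoposide differences of 0.57 and -0.19 were not called, and its twin Hspa1b was not analysed here. The list of HSP70 and HSP110 genes had 7 of 10 measured genes above the filter, 0 called after etoposide in either line and 1, Hspa4l, called with p63. Over all genes kept, 5.65% (GFP) and 7.61% (p63) were called after etoposide, and 6.18% (mock) and 1.90% (etoposide) with p63. Its median etoposide difference was -0.29 (GFP) and -0.01 (p63). Of the genes outside the 10 members, Hspa2, a testis-enriched HSP70, stood at 0.09 and 0.00 and Hspa14, part of a ribosome-bound chaperone complex, at 0.25 and 0.28.

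Dnajb1, the J-domain protein HSP40 that delivers clients to HSP70, read 9.05, 9.57, 9.49 and 10.2. The lowest reading was that of mock-treated GFP cells and the highest that of etoposide-treated p63 cells, and the others lay between them. It stood higher after etoposide by 0.51 (1.43-fold, GFP) and 0.68 (1.60-fold, p63), and higher with p63 by 0.44 and 0.60. None of these reached 2-fold. Dnajb1, Hspb8 and Cryab had the same order of the 4 arrays, an order seen after their values were known and shared by 5.65% of all genes kept. Among 16 cytosolic and nuclear J-domain genes kept, 0 were called after etoposide in GFP cells and 1 in p63 cells. Of all genes kept, 5.65% and 7.61% were called in these comparisons, so the counts say little of this list. The gene called was Dnajc9, a histone-binding co-chaperone, at 0.93 (GFP) and 1.02 (p63). Dnajb4, like Dnajb1 an HSP40, had etoposide differences of -0.74 and -0.55 and p63 differences of 0.77 and 0.96, none of them called.

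Bag3, the co-chaperone that joins HSP70 to HSPB8, had the narrowest range of the 10 members, 0.32, and read 7.73, 7.55, 7.66 and 7.87. Its etoposide difference was -0.18 (GFP) and 0.20 (p63), and its p63 difference -0.06 and 0.32. The window of Bag3 ended in a pair of facing units 43 bases after the start, at chr7:128523615-128523632 on the plus strand, with the same 8 letters as in Hspb8 and Hspb1:

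Bag3: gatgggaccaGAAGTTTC

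Of the 9 BAG and HSP70 regulator genes kept, 0 were called in any comparison. The single comparisons called 1.90% to 7.61% of all genes kept, so 0 of 9 says little. Bag4, known as a silencer of death domains, stood at 0.35 and 0.92 after etoposide, and Bag5 at -0.56 and -0.09.

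Hsp90aa1, the stress-inducible cytosolic HSP90, read 12.8, 12.8, 12.5 and 12.7, with both p63 arrays below both GFP arrays. It spanned 0.38, with etoposide differences of 0.03 and 0.20 and p63 differences of -0.34 and -0.17. Its 3 probe sets differed by at most 0.06 in any of these differences. They carry the same gene symbol and are not counted as independent readings. Of 14 genes of HSP90 and its co-chaperones kept, 1 was called, Ppp5c, a phosphatase that binds HSP90. Of all genes kept, 7.61% were called after etoposide in p63 cells and 6.18% with p63 in mock-treated cells. Ppp5c read 9.79, 10.03, 8.76 and 10.02, so that its etoposide difference of 1.26 in p63 cells and its p63 difference of -1.03 in mock-treated cells rest on the array of mock-treated p63 cells. Without that array its values are 0.24 after etoposide in GFP cells and -0.01 with p63 in etoposide-treated cells. Chordc1, an HSP90 partner that HSF1 induces, stood at -0.80 and -0.57 after etoposide.

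In counts, 1 of the 10 chaperones was called after etoposide in GFP cells, where 5.65% of all genes kept were called. In p63 cells 2 of 10 were called, against 7.61%, and 1 of 10, Cryab, was called in both lines, against 3.18%. With 10 members these counts describe Cryab and Hspb1 and say little of the family. At the lower threshold of 1.5-fold, 2 of 10 were called in GFP cells (18.8% of all genes), 5 of 10 in p63 cells (22.0%) and 2 of 10 in both lines (9.23%). Those in both lines were Cryab, higher, and Hspa4l, lower, and p63 cells added Hspb1, Dnajb1 and Hspb8, all higher. Hsph1 in GFP cells, at -0.58, was just outside this threshold, and Dnajb1 with p63 in etoposide-treated cells, at 0.60, just inside. The median etoposide difference of the members was -0.07 (GFP) and 0.20 (p63), beside medians of -0.08 and 0.10 over all genes kept.

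**Figure D2:**
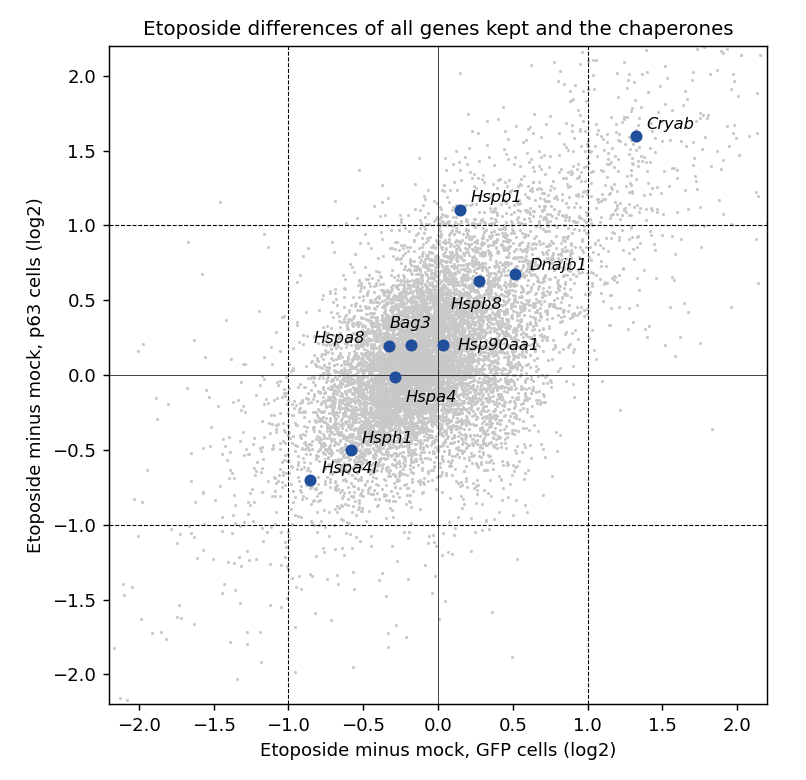
Etoposide minus mock difference (log2) in GFP cells against that in p63 cells, for all 10698 genes kept (grey) and the 10 chaperones (blue), with dashed lines at 2-fold; 61 genes lie outside the axes. Cryab lies beyond 2-fold on both axes, Hspb1 on the p63 axis only, and Hspa4l and Hsph1 lie lower left, inside the lines.

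Between the lines, 1 of 10 was called with p63 in mock-treated cells (6.18% of all genes kept), 1 of 10 in etoposide-treated cells (1.90%) and 1 of 10 under both treatments (1.41%), in each case Hspa4l. At 1.5-fold the counts were 1 under mock (22.8%) and 3 under etoposide treatment (6.78%), with Hspb1 and Dnajb1 added in etoposide-treated cells. The median p63 difference of the members was -0.05 (mock) and 0.37 (etoposide), and that of all genes kept -0.14 and 0.02. These comparisons share arrays with the etoposide comparisons, so the values are not separate evidence. The call of Hspa4l in etoposide-treated cells does not use the array of mock-treated p63 cells.

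**Figure D3:**
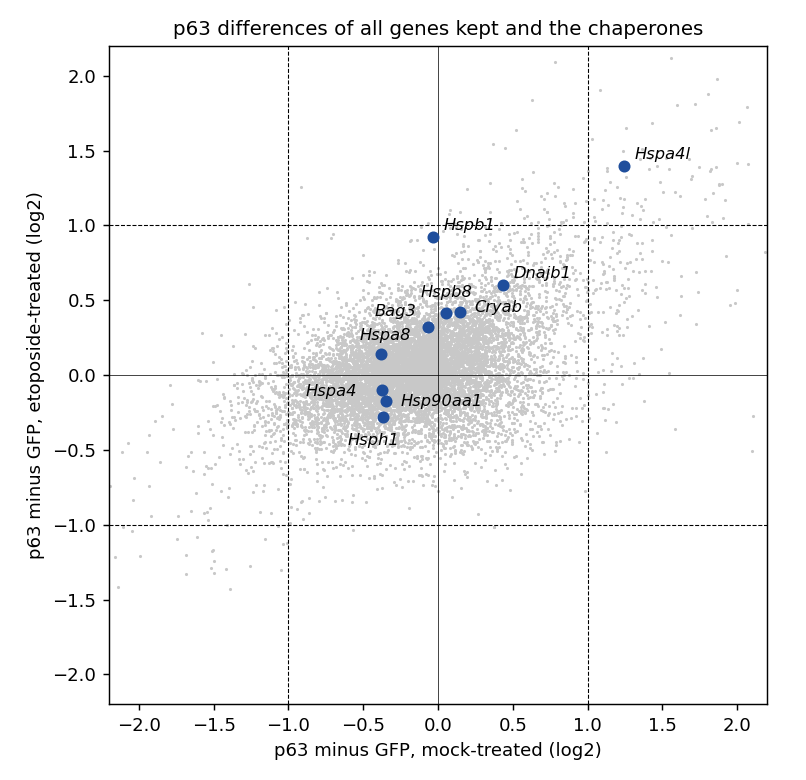
Difference of p63 minus GFP (log2) in mock-treated cells against that in etoposide-treated cells, for all 10698 genes kept (grey) and the 10 chaperones (blue), with dashed lines at 2-fold; 76 genes lie outside the axes. Hspa4l alone of the members lies beyond 2-fold, on both axes, and Hspb1 stands at -0.04 and 0.92.

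Whether the response to etoposide differed between the lines was read from the difference of the etoposide differences, p63 minus GFP. It was above 0 for 10 of 10 members, but also for 69.3% of all genes kept, and 6 of 10 members exceeded the median over all genes, 0.20. At 2-fold 0 of 10 were called, against 3.94% of all genes, and at 1.5-fold 1 of 10, Hspb1, against 21.6%. After Hspb1 at 0.96, the next values were 0.52 for Hspa8, 0.38 for Bag3 and 0.36 for Hspb8, and the lowest was 0.08 for Hsph1.

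The wider chaperone network was examined with lists by compartment and role. The 86 kept genes of these lists outside the 10 members include co-chaperones and heat shock factors as well as chaperones. Of the 86, 0 were called higher and 1 lower after etoposide in GFP cells, and 2 were called higher and 0 lower in p63 cells. In these comparisons 5.65% and 7.61% of all genes kept were called. The median difference of the 86 was -0.11 and 0.08, near the medians of all genes kept. The gene called lower was Hsf2, a heat shock factor, at -1.05 (GFP) and -0.81 (p63), and those called higher were Ppp5c and Dnajc9. Hsf2 read 8.51, 7.45, 8.66 and 7.85, with both etoposide arrays below both mock arrays. Hsbp1, which binds HSF1 trimers, stood at 0.29 and 0.27, and Hsf1 itself was not analysed here. With p63, 1 of the 86 was called in mock-treated cells, Ppp5c, and 0 in etoposide-treated cells, against 6.18% and 1.90% of all genes kept. For the difference of the etoposide differences 2 of the 86 were called higher and 0 lower, Dnajb9 (1.08) and Ppp5c (1.02), against 3.94%.

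Genes induced by HSF1 under heat form a list of 26 genes kept that includes 9 of the 10 members. Their medians after etoposide were -0.09 (GFP) and 0.11 (p63), beside -0.08 and 0.10 over all genes kept. In both lines 9 of the 26 stood above 0 and 8 below 0, while 62.9% of all genes kept had the same sign in both lines. The genes called after etoposide were Cryab and, in p63 cells, Hspb1. The cytosolic chaperonin TRiC with prefoldin, which folds actin and tubulin, had medians of -0.19 and 0.13 over 14 genes, with 0 called. Its subunit Cct3 stood at -0.30 and 0.29 and the prefoldin gene Vbp1 at -0.46 and -0.52. Mitochondrial chaperones had medians of -0.12 and 0.02 over 13 genes, with 0 called. In this group Hspa9, the mitochondrial HSP70, stood at -0.10 and 0.17, and Clpx, an unfoldase of the matrix, at -0.59 and -0.44. Chaperones of the endoplasmic reticulum had medians of -0.05 and 0.08 over 16 genes, with 0 called after etoposide in either line. As 5.65% (GFP) and 7.61% (p63) of all genes kept were called, 0 in lists of 13 to 16 genes says little. Dnajb9, a J-domain partner of the HSP70 protein BiP, stood at -0.13 (GFP) and 0.95 (p63), and Sdf2l1 at 0.27 and 0.63.

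**Figure D4:**
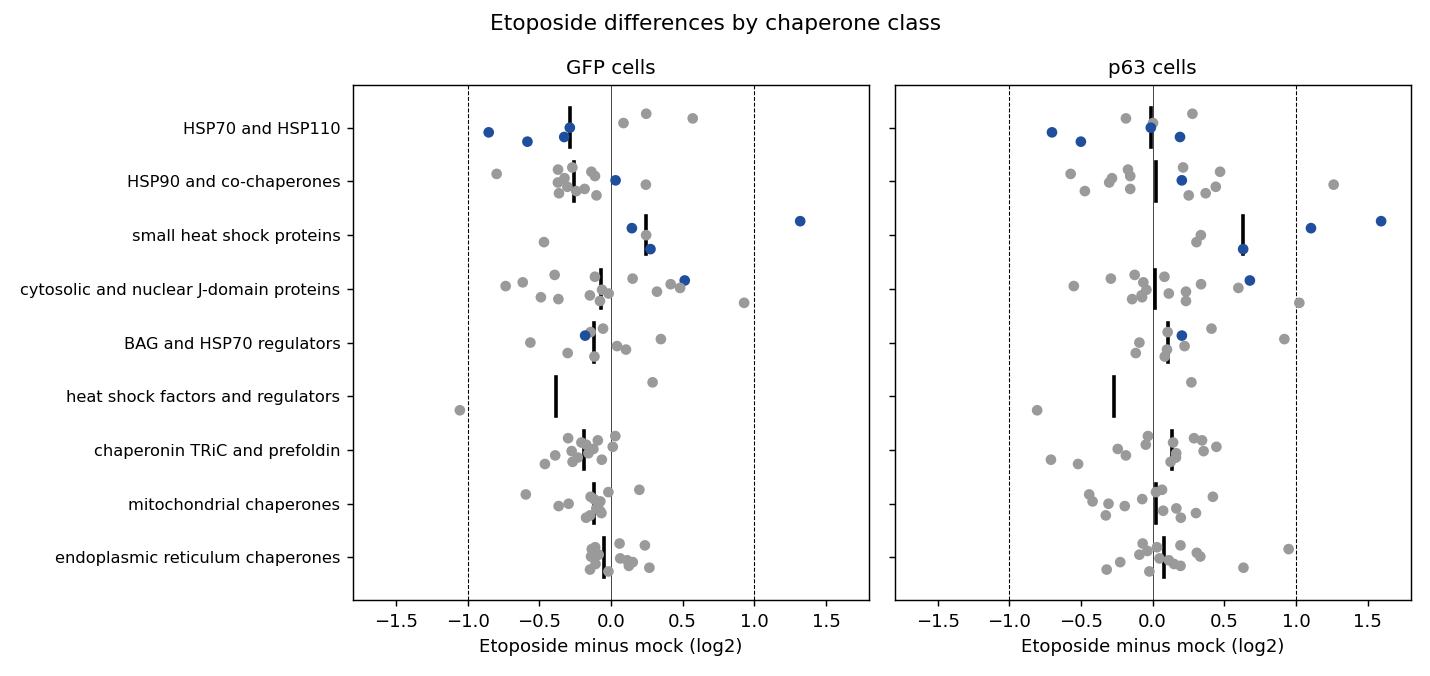
Etoposide minus mock difference (log2) of each kept gene of the chaperone lists, by class, in GFP cells (left) and p63 cells (right). Blue points are the 10 members, grey points other genes, black bars the class medians and dashed lines 2-fold. In p63 cells the small heat shock proteins have the highest class median, 0.63, over 5 genes, 3 of them members. In that class Cryab and Hspb1 lie beyond the line.

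The members with the widest ranges were Hspa4l, Cryab and Dnajb1. For each, the genes kept whose 4 readings, less their own mean, lay nearest were taken by Euclidean distance over the 4 arrays. Genes with clone or predicted names, olfactory and vomeronasal receptor genes and microRNA and snoRNA genes were left out, so a nearer gene may be unnamed here. Nearest to Cryab were Rasl11b, a small GTPase (distance 0.10), Pmm1, a phosphomannomutase (0.11), and Gss, glutathione synthetase (0.11). Gss stood higher after etoposide by 1.25 and 1.55, and Pmm1 by 1.30 and 1.45. Nearest to Hspa4l were Antxr1, an anthrax toxin receptor (0.29), Wls, which carries Wnt proteins to the cell surface (0.33), and Lfng, a modifier of Notch (0.40), all at greater distances than those of Cryab. Antxr1 differed with p63 by 1.38 and 1.18. Nearest to Dnajb1 were Sh3tc1 (0.05), Unc119 (0.07) and Nod2 (0.08). Of these, Sh3tc1 and Nod2 were dim and reached 5.87 only on the p63 etoposide array, where Dnajb1 was highest. Rasl11b, named with Cryab, reached it only on the etoposide arrays. The filter thus favoured this likeness in Sh3tc1, Nod2 and Rasl11b, and it is no support for a shared response. These distances describe 4 arrays and carry no test.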

How the data were processed

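Total RNA of 4 samples was measured on Affymetrix Mouse Gene ST arrays, 1 per group as labelled. The deposited values are log2 RMA signals per probe set, made with Affymetrix Expression Console by the authors, per the submitters' processing notes. The sources used here give no version. RMA makes the arrays' intensity distributions alike, so shifts shared by most genes are largely removed. The log base was read from the range of values, 1.27 to 14.4. Of 35512 probe sets, 21789 had 1 gene symbol in a platform annotation of 2016, 1621 had several and 12102 were unlisted and are unnamed here. Symbols were updated through Entrez identifiers in a RefSeq table (GRCm38.p6), with 21698 matched.

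A gene with more than 1 probe set was read from that of highest mean. Genes whose highest reading reached the 50th percentile, 5.87, were kept. Differences were called at 1 (log2), with 1.5-fold beside it. No test was run: with 1 array per group no spread within a group was measured, and the number of arrays limits the precision. Differences were computed in Python 3.11.15 with pandas 2.3.3. The computation of calls in both lines was checked on simulated data with planted shifts well above the threshold and little noise. That check says nothing of how reliable the calls in these arrays are. Alternatives were no filter, a 75th percentile filter (7.82), 1.5-fold, the median of probe sets, arrays centred on their medians over named genes, cyclic loess (limma 3.58.1) and readings below 5.87 raised to it.

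Every member was named. Other genes of the chaperone lists were named where called in both lines or under both treatments. In a list with none, the 2 with the largest mean difference were named. The 3 nearest genes were named for each of the 3 members with the widest ranges, with clone and predicted names and the gene classes given above left out. Hspa1a, Cryaa, Hspb2 and marker genes were added for their role after their values were seen. The members and lists were chosen with earlier results of these data known.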

Additional observations from a re-analysis of the deposited data

Results flagged for a closer look

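Members whose differences had opposite signs in the groups compared were looked at again, and in no case was the difference between groups tested, since each rests on single arrays. The etoposide difference of Hspa8 was -0.33 (GFP) and 0.19 (p63), 0.52 apart, and that of Bag3 was -0.18 and 0.20, 0.38 apart. The p63 differences of the same genes, built from the same 4 arrays and so the same distance apart, were -0.38 and 0.14 for Hspa8 and -0.06 and 0.32 for Bag3. The p63 difference of Hspb1 was -0.04 (mock) and 0.92 (etoposide), 0.96 apart, and with cyclic loess the value without etoposide was 0.13 for Hspb1 and 0.11 for Bag3. The median of this distance, p63 minus GFP, was 0.20 over all genes kept.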

How the results depend on the processing

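The calls of Cryab after etoposide in both lines and of Hspa4l with p63 under both treatments, and their directions, were the same without a filter, with the 75th percentile filter, with the median of probe sets, with arrays centred, after cyclic loess and with dim readings raised. At 1.5-fold the count of members called was 2 after etoposide in GFP cells, 5 in p63 cells, 2 in both lines, 3 with p63 in etoposide-treated cells and 1 for the difference of the etoposide differences. That last count was also 1, against 0, with the median of probe sets and with arrays centred, where Hspb1 reached 1.06 and 1.08, and it was 0 after cyclic loess, where Hspb1 was at 0.75. The members' median etoposide difference in GFP cells was -0.18 with the 75th percentile filter, which drops Hspb8, -0.22 with arrays centred and 0.00 after cyclic loess. Centring moved the median of all genes kept in that comparison from -0.08 to -0.22, and cyclic loess moved that of the difference of the etoposide differences from 0.20 to 0.04. Of 50 member values, 2 changed sign with arrays centred and 5 after cyclic loess, all of them small. After cyclic loess the difference of the etoposide differences was below 0 for Hspa4l (-0.09), Hsph1 (-0.11) and Dnajb1 (-0.05), so its sign in all 10 members depends on the scaling. Raising dim readings changed no member value, as all lie above 5.87.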
